A study of Mus musculus with 12 samples.

Results

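Myelin structural genes code for the proteins that build and hold together the membrane wrapped around axons by oligodendrocytes, the myelin-forming glia of the brain. The genes described here were Mbp, Mobp, Mog, Mag, Mal, Cldn11, Cnp, Ermn and Tspan2. They were taken by symbol as 9 of the 23253 genes in the deposited mouse gene table, and all 9 passed the filter on low counts, as 17909 genes did. RNA had been sequenced in 12 libraries labelled as cortical neurons sorted by flow cytometry, in a series on the role of the TGF-beta family ligand GDF10 in axon growth and recovery after stroke.

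The 4 groups held 3 libraries each, and the labels give C57BL/6 mice for all of them and name no transgene or Cre. The adult control group is labelled as wild-type adult animals. The stroke group is labelled as adult animals with photothrombotic stroke, made by illuminating the exposed skull with cold light for 15 min after the dye rose bengal, which produced a lesion of 2 mm. The siRNA-labelled group had the same stroke with a small interfering RNA against GDF10. The P4 group is labelled as an animal control without saying what P4 stands for. Its growth text calls the mice adult, as in every other group, and the text on the stroke procedure is attached to every library, controls included. The labels give no time after stroke and no statement that the libraries of a group came from separate animals. The p-values therefore measure the spread between these libraries, which may be technical.

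Myelin in the brain forms mostly after birth, when precursor cells differentiate and switch on the genes of the sheath together under transcription factors such as SOX10 and MYRF. MBP draws the cytoplasmic faces of the membrane together, and MOBP lies in the same compacted layers. CNP, an enzyme that cleaves cyclic nucleotides, keeps cytoplasmic channels in the sheath open. CLDN11 forms the tight junctions between myelin layers, MAG binds the axon from the innermost layer, and MOG sits on the outermost surface. MAL is a proteolipid of lipid-rich membrane domains, ERMN (ermin) binds actin in oligodendrocytes, and TSPAN2 is a tetraspanin of the oligodendrocyte membrane. The proteins of the compact sheath are made by oligodendrocytes, although the Mbp locus also makes golli transcripts in other cells, which counts per gene cannot separate.

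In GRCm38, Cldn11 spans chr3:31149920-31164326, Mobp chr9:120149742-120181488, Cnp chr11:100574909-100591875 and Mog chr17:37010740-37023398. Mag lies at chr7:30899175-30914922, Mal at chr2:127633226-127656695, Ermn at chr2:58045115-58052864 and Tspan2 at chr3:102734770-102772310. The upstream windows of 4 genes are shown because their levels behaved differently among the adult groups, as described after them. Cldn11 was the only gene of the 9 called in stroke, Mobp varied least, and Cnp and Mog varied strongly between libraries of 1 group. Each sequence is the 250 bases before a transcription start in the RefSeq table for GRCm38.p6, printed 5′ to 3′ on the gene's strand. For Cnp that start lies inside the span given above, so the end of its window overlaps the span. The windows are chr3:31149670-31149919 on the plus strand for Cldn11, chr9:120149492-120149741 on the plus strand for Mobp, chr11:100574689-100574938 on the plus strand for Cnp and chr17:37023399-37023648 on the minus strand for Mog. Capitals mark matches on either strand to CTGGNAC, which covers the motif of MYRF, or to ACAAAG, a SOX motif.
Cldn11: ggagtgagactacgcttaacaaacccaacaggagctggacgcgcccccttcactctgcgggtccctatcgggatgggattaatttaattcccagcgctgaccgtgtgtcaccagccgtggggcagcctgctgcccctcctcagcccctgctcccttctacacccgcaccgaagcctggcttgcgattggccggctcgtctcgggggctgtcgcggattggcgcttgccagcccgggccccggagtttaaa
Mobp: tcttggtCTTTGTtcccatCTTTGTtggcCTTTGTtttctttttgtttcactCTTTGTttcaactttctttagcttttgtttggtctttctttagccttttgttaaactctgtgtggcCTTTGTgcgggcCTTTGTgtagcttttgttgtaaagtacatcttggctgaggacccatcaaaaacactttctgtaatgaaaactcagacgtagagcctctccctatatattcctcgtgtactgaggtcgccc
Cnp: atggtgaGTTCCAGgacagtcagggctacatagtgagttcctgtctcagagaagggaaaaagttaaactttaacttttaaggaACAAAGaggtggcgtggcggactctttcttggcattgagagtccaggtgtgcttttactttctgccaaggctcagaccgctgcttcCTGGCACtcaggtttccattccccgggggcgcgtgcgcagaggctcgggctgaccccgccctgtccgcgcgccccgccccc
Mog: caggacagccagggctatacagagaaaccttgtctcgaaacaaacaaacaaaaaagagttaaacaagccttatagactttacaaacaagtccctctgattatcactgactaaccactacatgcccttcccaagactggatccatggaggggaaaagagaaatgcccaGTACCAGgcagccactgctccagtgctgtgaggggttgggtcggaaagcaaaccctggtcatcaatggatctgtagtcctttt
Windows were found for 8 of the 9 genes. The table holds 11 windows for these genes, because Mag and Tspan2 have several starts. The Mag windows chr7:30914864-30915113 and chr7:30914923-30915172 overlap and hold the same matches, which are therefore counted in both. CTGGNAC was present in 4 of the 11 windows (of Mag, Cnp and Mog) and in 16.1% of all 32851 windows of this length in the table. ACAAAG was present in 5 of the 11 (of Tspan2, Mag, Mobp and Cnp) against 16.5% of all windows, with 6 matches in the window of Mobp. By gene, CTGGNAC was found for 3 of 8 and ACAAAG for 4 of 8. CAGCTG, an E-box of the kind OLIG2 binds, was present in 0 of 11 against 13.0%, and the window of Cldn11 held none of these letters. CTGGNAC and ACAAAG can share their AC, and no match did so in these windows. A match is a run of letters and does not show binding.

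The libraries differed in ways that touch the genes described. Total counts ranged from 10517638 to 48633350 per library. Levels are given as CPM, read counts divided by library size after TMM scaling, as mean ± SD with n = 3. The dependence of a library on base composition was expressed as a GC slope, the change in a gene's log2 CPM, relative to its mean over all libraries, for each 10 percentage points of transcript GC. This slope ran from -1.12 in adult control 3 to 0.56 in adult control 2. It was also below 0 in adult control 1 (-0.20), siRNA-labelled 1 (-0.38) and 2 (-0.49) and P4 6 (-0.78). It was above 0 in the other libraries (0.26 to 0.50), which include all of the stroke group. The numbers in the labels are 1 to 3 for adult control and siRNA-labelled libraries and 4 to 6 for the remaining groups. A batch following them cannot be told apart from the group in stroke against adult control, in siRNA-labelled against stroke, in P4 against adult control and in siRNA-labelled against P4.

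Although the libraries are labelled as neurons, the 9 myelin genes took more counts than 10 pan-neuronal markers in every adult group. Their share of all counts was 1.805 ± 0.252% for the adult controls, 2.46 ± 0.38% for stroke, 2.59 ± 0.04% for siRNA-labelled stroke and 0.0145 ± 0.0040% for P4. The share of the neuronal list, in that order of groups, was 0.433 ± 0.213%, 0.176 ± 0.020%, 0.224 ± 0.057% and 0.720 ± 0.175%. The order of the 2 lists was thus opposite in the adult groups and in P4. In such bulk libraries a smaller number of oligodendrocytes, or fragments of them, and less RNA per cell cannot be told apart.

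Among the adult libraries, levels compared per length (CPM per kilobase of transcript) put Tspan2 highest in adult control at 1229 ± 484. Ermn (1029 ± 574) and Mal (1024 ± 419) followed, and these 3 did not differ beyond their spread. Mbp (680 ± 299), Cnp (589 ± 414) and Cldn11 (445 ± 106) came next with overlapping ranges, and Mobp, Mog and Mag were lowest at 317 ± 52.0, 139 ± 89.2 and 132 ± 129. In stroke the highest level per kilobase was that of Cldn11 at 2084 ± 239, up from the sixth place, ahead of Cnp (1441 ± 288), Mbp (1410 ± 100) and Tspan2 (1340 ± 357). The lowest stroke library for Cldn11 had 1822 and the highest for Cnp 1764, so these neighbours did not overlap. In the siRNA-labelled group Tspan2 (2061 ± 736) and Cldn11 (1600 ± 193) held the leading places. In P4 the leading genes were Tspan2 (15.8 ± 11.7), Mbp (15.0 ± 5.84) and Cnp (8.14 ± 3.79), and the lowest was Mobp (0.318 ± 0.260).

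**Figure D1:**
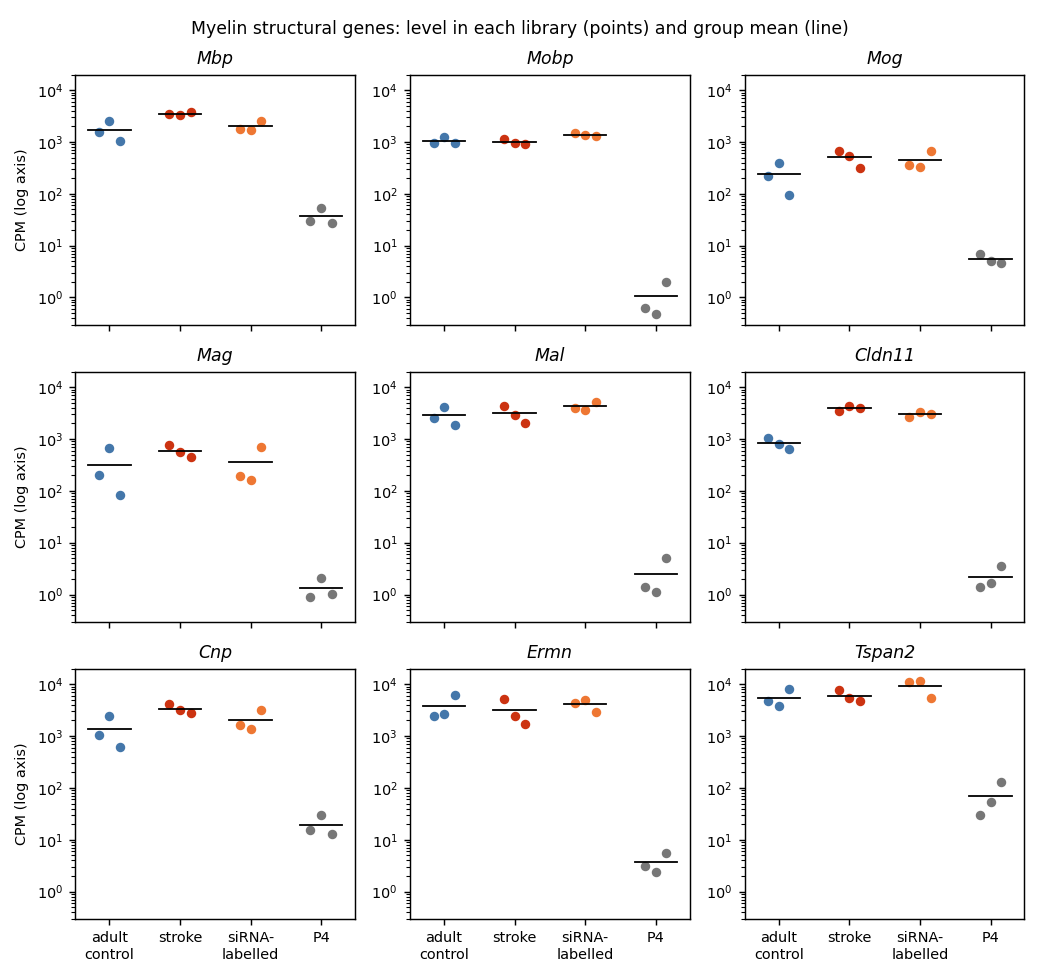
Level of each of the 9 genes in CPM on a log axis, with a point for each of the 12 libraries and a line at the group mean (n = 3). P4 lies below every adult library for all 9 genes, and Cldn11 goes from a mean of 832 CPM (controls) to 3897 CPM (stroke) with no overlap.

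In stroke against adult control, the question is what the lesion changed in the sorted cells. Cldn11, the tight junction protein, was the only gene of the 9 that was called, and it rose 4.68-fold. At an unadjusted p under 0.05 there were 4 of the 9 (Cldn11, Mbp, Cnp and Mog, all higher in stroke), beside 15.9% of all genes. Mbp and Cnp lay higher in every stroke library than in any control library without passing the test. Mobp, Mal, Ermn and Tspan2 had fitted differences of at most 0.25 in either direction on the log2 scale.

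Cldn11 counts gave 1038, 818 and 642 CPM for adult control 1, 2 and 3, and 3407, 4281 and 4002 CPM for stroke 4, 5 and 6. Every stroke library was above every control library. The log2 fold change was 2.23 (SE 0.34, edgeR quasi-likelihood test, adjusted p = 0.00738). This made 1 of the 9 genes called, where 0.704% of all 17909 genes tested were called in either direction and 0.486% were called higher. The call held in all 14 alternative fits, including each that left out a library, with log2 fold changes from 2.04 to 2.42 and adjusted p from 4.14e-06 to 0.0425. In the authors' deposited table the same change was 2.24 with a false discovery rate of 1.74e-05, and Cldn11 was again the only gene of the 9 called, among 3.02% of all genes.

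Mbp stood at 1536, 2508 and 1043 CPM in adult control 1, 2 and 3, and at 3481, 3282 and 3777 CPM in the stroke libraries. The groups did not overlap, and the stroke libraries lay closer together than the controls. The log2 fold change was 1.05 (SE 0.36, edgeR adjusted p = 0.186). Cnp had 1070, 2484 and 610 CPM in the controls, against 4157, 3178 and 2852 CPM in the stroke libraries. Its groups did not overlap either, and adult control 2 came nearest to the stroke libraries. The log2 fold change was 1.29 (SE 0.49, edgeR adjusted p = 0.224). Without adult control 2 both genes passed, Mbp at 1.46 (edgeR adjusted p = 0.0464) and Cnp at 2.02 (edgeR adjusted p = 0.0365), which made 3 of 9 genes called, where 2.93% of all genes were called in that fit. Groups that did not overlap were found for 3 of the 9 genes and for 20% of all genes tested.

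Mog, the protein of the outer surface, had 218, 396 and 93.9 CPM in the controls, against 672, 528 and 310 CPM in the stroke libraries. The lowest stroke library lay below adult control 2, so the groups overlapped, and the log2 fold change of 1.09 (SE 0.47) had an edgeR adjusted p of 0.275. Mag, the protein of the inner layer, had the widest range of the 9 genes over the adult libraries, 9.20-fold. Its control libraries had 205, 677 and 84.3 CPM and its stroke libraries 776, 552 and 453 CPM, with overlap and a log2 fold change of 0.88 (SE 0.66, edgeR adjusted p = 0.538). The widest range thus belonged to a gene whose highest control library exceeded 2 stroke libraries.

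The other genes overlapped between stroke and adult control. Mobp had the narrowest range of the 9 over the adult libraries, 1.63-fold, with 943 to 1240 CPM in the controls and 930 to 1136 CPM with stroke (log2 fold change -0.04, SE 0.39). Mal ran from 1881 to 4139 CPM in the controls and from 2064 to 4406 CPM with stroke (0.14, SE 0.48). Ermn ran from 2441 to 6146 CPM and from 1738 to 5251 CPM (-0.25, SE 0.46), and Tspan2 from 3798 to 7949 CPM and from 4686 to 7785 CPM (0.12, SE 0.47). Their intervals still covered changes near 1 on the log2 scale, for example -0.89 to 1.17 for Mal. The median log2 fold change of the 9 genes was 0.88, beside -0.08 for all genes tested.

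The unequal change showed within the libraries as well. Cldn11 gave 7.04, 4.37 and 3.31% of the counts on the 9 genes in adult control 1, 2 and 3. It gave 10.97, 18.1 and 19.2% in stroke 4, 5 and 6 and 9.70, 11.8 and 11.9% in the siRNA-labelled libraries 1, 2 and 3. Every library with stroke lay above every control. In P4 its part was 1.59, 1.14 and 1.81%. These percentages depend on transcript length as well as on level, and are not comparable between genes. They also differed between control libraries of unlike GC slope. Tspan2 and Ermn gave 41.0 and 31.7% in adult control 3 (slope -1.12), against 20.3 and 14.1% in adult control 2 (slope 0.56). The part of base composition in these percentages was not tested.

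**Figure D2:**
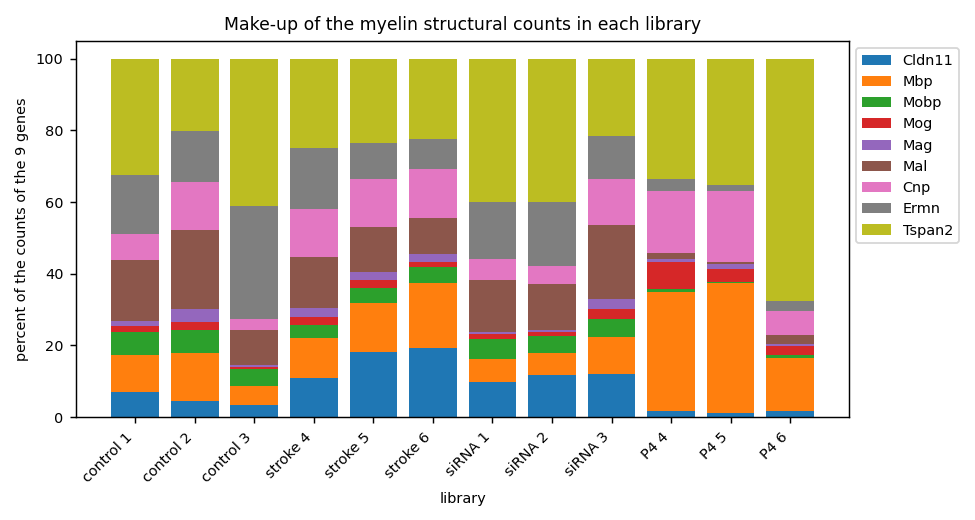
Percent of the counts on the 9 genes that fell on each gene, as a stacked bar for each of the 12 libraries. Cldn11 takes 3.31 to 7.04% in the controls and 10.97 to 19.2% with stroke alone, and in P4 Mbp and Tspan2 take the largest parts.

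In siRNA-labelled stroke against adult control, Cldn11 again had the largest difference, 3.59-fold, but did not pass the test. All 9 genes had a fitted value above 0, and 0 of 9 were called, where 0.117% of all genes were. These controls are the libraries also used in the stroke comparison, so the values of both comparisons are not independent. Cldn11 stood at 2637, 3359 and 2981 CPM in siRNA-labelled 1, 2 and 3, above every control library. The log2 fold change was 1.85 (SE 0.34, unadjusted p = 6.67e-05, edgeR adjusted p = 0.0543), and 1 of the 9 genes had an unadjusted p under 0.05, as 8.36% of all genes did. DESeq2 called 1 of the 9, Cldn11, at an adjusted p of 0.000341, and 2.09% of all genes. Over 16 alternative fits, which called from 0 to 2.09% of all genes, Cldn11 passed in 5, with log2 fold changes from 1.69 to 2.04. The authors' deposited table gave 1.85 with a false discovery rate of 0.00191, again the only call among the 9 genes there, beside 0.839% of all genes.

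Mobp was the other gene whose groups did not overlap in this comparison, and 10.8% of all genes did not overlap. Its controls had 945, 1240 and 943 CPM, against 1513, 1337 and 1297 CPM for the siRNA-labelled libraries, with a log2 fold change of 0.41 (SE 0.39, edgeR adjusted p = 0.864). The other 7 genes overlapped, with log2 fold changes from 0.13 (Ermn and Mag) to 0.96 (Mog) and edgeR adjusted p from 0.608 to 0.981. The median over the 9 genes was 0.58, beside -0.02 for all genes tested.

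In siRNA-labelled stroke against stroke, the question is what the siRNA changed after the lesion. Of the 9 genes 0 were called by edgeR or by DESeq2, where edgeR called 0.00558% and DESeq2 1.18% of all genes tested. By edgeR, 1 of the 9 had an unadjusted p under 0.05, as 7.37% of all genes did. Gdf10 itself was not lower in the libraries labelled with its siRNA. Its counts were 8, 7 and 1 there, 0, 5 and 0 in stroke, 15, 21 and 0 in the controls and 189, 241 and 33 in P4. These are a few reads per library in the adult groups, and the log2 fold change against stroke was 2.34 (SE 1.67, edgeR adjusted p = 0.778).

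Mbp had the smallest p of the 9. It stood at 1765, 1703 and 2594 CPM in siRNA-labelled 1, 2 and 3, all below the 3 stroke libraries. The log2 fold change was -0.80 (SE 0.36, unadjusted p = 0.0406, edgeR adjusted p = 0.659). Cldn11 also lay below every stroke library, with a log2 fold change of -0.38 (SE 0.33, edgeR adjusted p = 0.820) and an interval from -1.08 to 0.32. Mobp lay above every stroke library, at 0.45 (SE 0.39, edgeR adjusted p = 0.824). These are the 3 of 9 genes without overlap, where 15.9% of all genes had none.

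For the rest the siRNA-labelled group was split by library. Mag stood at 193, 163 and 703 CPM and Cnp at 1616, 1389 and 3241 CPM in siRNA-labelled 1, 2 and 3, so that the last library reached the stroke range and the others did not. Mog had 367, 323 and 684 CPM, highest in the same library, with the first 2 within the stroke range of 310 to 672 CPM and the last above it. Ermn and Tspan2 ran the other way, with 4259, 5065 and 2969 CPM and with 10911, 11379 and 5440 CPM. The library that was high for Mag, Cnp and Mog was thus the lowest for Ermn and Tspan2. Mal was 3928, 3646 and 5175 CPM.

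**Figure D3:**
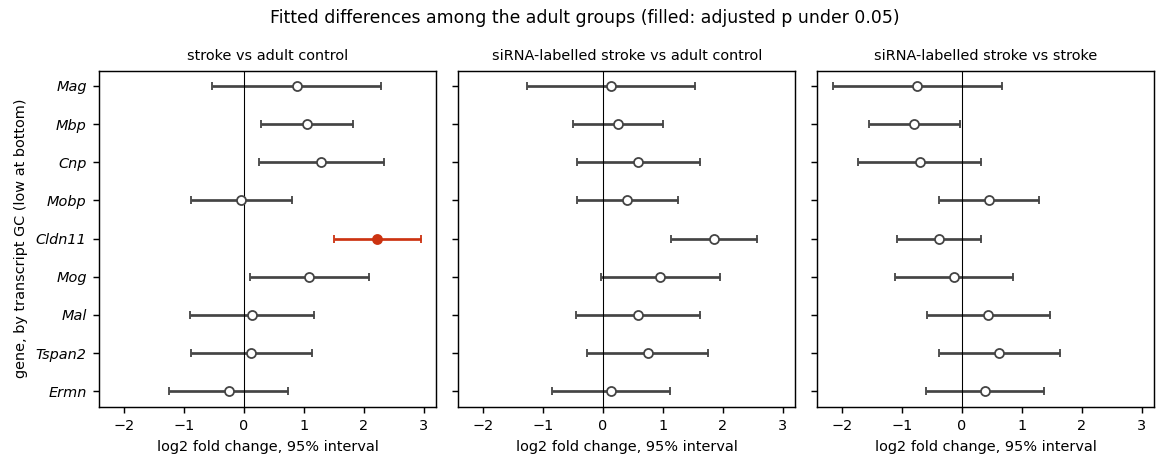
Log2 fold change of each gene in the 3 comparisons among adult groups, with the approximate 95% interval as a bar and a filled point where the adjusted p was under 0.05. The filled point is that of Cldn11 in stroke against adult control at 2.23.

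This split ran in part along the GC content of the transcripts. The GC content was 57.6% for Mag, 56.6% for Mbp, 55.8% for Cnp, 53.3% for Mobp, 50.9% for Cldn11, 50% for Mog, 48.9% for Mal, 42.2% for Tspan2 and 38.0% for Ermn. Over the 9 adult libraries, which share the 3 groups, the log2 CPM of a gene correlated with the library's GC slope at r = 0.98 for Mag, 0.92 for Cnp, 0.89 for Mbp and 0.84 for Mog. The value was 0.52 for Mal, 0.43 for Cldn11 and 0.06 for Mobp, and -0.62 for both Ermn and Tspan2. Mag, Mbp and Cnp, with the highest GC content, thus followed the slope upwards, and Ermn and Tspan2, with the lowest, followed it downwards. Between these the order of GC content was not kept, as Mobp at 53.3% had 0.06 and Mog at 50% had 0.84. These values are descriptions, since the same slope is also unequal between the groups.

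**Figure D4:**
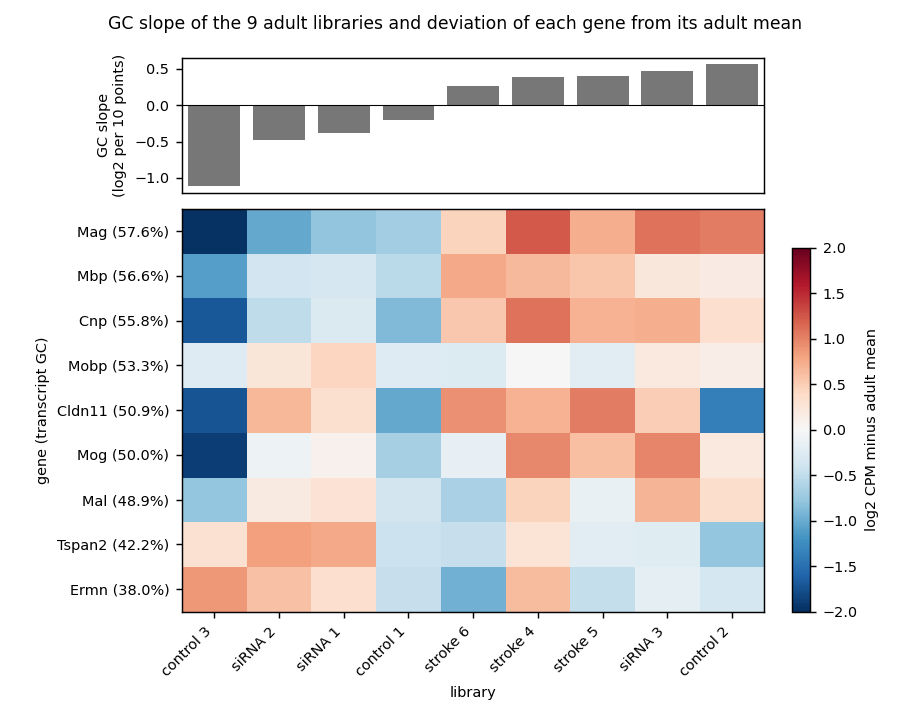
The upper panel shows the GC slope of each of the 9 adult libraries (log2 per 10 percentage points of GC), and the lower panel shows each gene's log2 CPM minus its adult mean, with genes ordered by transcript GC. Adult control 3, with a slope of -1.12, is low for Mag, Mbp, Cnp and Mog and high for Ermn and Tspan2.

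The genes of the list did not move as a block in the adult libraries. Of their 36 pairs, 26 had a positive correlation of log2 CPM over the 9 adult libraries and 5 were above 0.8, with a median of 0.34. The values ran from -0.55 for Mbp with Ermn to 0.95, which was reached by Mbp with Cnp and by Mag with Cnp. Ermn and Tspan2 correlated at 0.80. All libraries enter each of these values, with their depth and base composition.

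Fits that take GC into account were chosen after the data had been seen. With offsets adjusted for GC in each library, Cldn11 in stroke against adult control was 2.04 (edgeR adjusted p = 0.00408), while Mbp was 0.54 (0.292) and Cnp 0.96 (0.104), both adjusted p from edgeR. With the slope as a covariate the values were 2.33 for Cldn11, 0.76 for Mbp and 0.88 for Cnp, and the call was that of Cldn11 (edgeR adjusted p = 0.000547). Within the libraries of positive slope, adult control 2 against the 3 stroke libraries, Cldn11 was 2.24 (edgeR adjusted p = 0.0195). In the same fit Mbp was 0.47, Cnp 0.44, Mog 0.33 and Mag -0.21. The lone control is assumed there to vary like the other groups, and it is also the control with the highest CPM for Mbp, Cnp, Mog and Mag. The part of base composition in the values of Mbp and Cnp cannot be told apart from that library.

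P4 stood apart from all adult groups. All 9 genes were lower in P4 than in adult control and all 9 were called, where 16.8% of all genes were called in either direction and 10.4% were called lower. The fitted log2 fold changes ran from -5.43 for Mog to -10.20 for Mal, with a median of -7.92 beside -0.16 for all genes tested. Every P4 library lay below every adult library for each of the 9 genes.

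Mbp, Mobp, Cnp and Cldn11 fell by unequal amounts. Mbp stood at 29.9, 54.0 and 27.9 CPM in P4 4, 5 and 6, a log2 fold change of -5.51 (SE 0.43, edgeR adjusted p = 7.12e-07). Mobp stood at 0.636, 0.475 and 2.03 CPM, from 34, 24 and 32 reads, which is -10.07 (SE 0.59, edgeR adjusted p = 7.79e-08). Both genes were thus still counted in every P4 library, Mbp above 27 CPM and Mobp near 1 CPM. Cnp at 15.5, 29.4 and 12.7 CPM fell by 6.17 on the log2 scale (edgeR adjusted p = 6.10e-06), and Cldn11 at 1.42, 1.70 and 3.48 CPM fell by 8.60 (edgeR adjusted p = 6.06e-08).

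The surface and membrane genes spanned the same range. Mog at 6.77, 5.09 and 4.56 CPM had the smallest change, -5.43 (SE 0.56, edgeR adjusted p = 9.95e-06), and Mag at 0.879, 2.04 and 1.01 CPM fell by 7.92 (edgeR adjusted p = 2.27e-05). Mal at 1.38, 1.13 and 5.00 CPM had the largest change, -10.20 (edgeR adjusted p = 3.32e-07). Ermn at 3.07, 2.41 and 5.64 CPM fell by 9.997 (edgeR adjusted p = 2.89e-07). Tspan2 remained the highest at 30.0, 52.4 and 130 CPM and fell by 6.29 (edgeR adjusted p = 4.71e-06). P4 6, the P4 library with a negative GC slope, was the highest of the 3 for Mobp, Mal, Cldn11, Ermn and Tspan2 and the lowest for Mbp, Mog and Cnp.

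Against P4, the 9 genes were also all called in both groups with stroke, and these comparisons share the P4 libraries. In stroke 9 of 9 were higher, where 18.8% of all genes were called and 10.8% were called higher, with log2 fold changes from 6.41 (Tspan2) to 10.82 (Cldn11). In the siRNA-labelled group 9 of 9 were higher, where 19.6% were called and 11.6% higher, with values from 5.76 (Mbp) to 10.78 (Mal). The authors' deposited table called all 9 genes in each comparison with P4, among 15.4, 16.6 and 17% of all genes for adult control, stroke and the siRNA-labelled group.

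The order of the group means in CPM was not the same for all genes. Cldn11 ran from stroke over siRNA-labelled and adult control to P4, with no overlap at any step. Mbp, Mog, Mag and Cnp had the same order, but siRNA-labelled and adult control overlapped for each of them, and stroke and siRNA-labelled overlapped for all but Mbp. For Mobp, Mal, Ermn and Tspan2 the siRNA-labelled group was highest. Its neighbour in the order overlapped with it for Mal, Ermn and Tspan2 and did not for Mobp. P4 was last without overlap for all 9, where 32.1, 44.4 and 39.4% of all genes did not overlap between P4 and adult control, stroke and siRNA-labelled stroke.

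Other genes of the myelin sheath and of the oligodendrocyte lineage were set beside these. In stroke against adult control, 1 of 16 other myelin protein genes rose, 0 of 7 genes of myelin lipid enzymes, 2 of 11 transcription factors, 2 of 9 further markers of mature oligodendrocytes and 1 of 10 precursor markers, and 0 fell, where 0.486% of all genes rose and 0.218% fell. At an unadjusted p under 0.05, in either direction, these lists held 7, 4, 7, 3 and 6 genes, beside 15.9% of all genes. Of these, Gpm6b (-1.12), Hapln2 (-0.89) and Pdgfra (-0.86) were lower in stroke (edgeR adjusted p = 0.176, 0.247 and 0.304), and the rest were higher. Fitted values below 0 were found for 5, 1, 1, 1 and 3 genes in that order of lists. Bcas1, a gene of newly myelinating oligodendrocytes, rose from 259 ± 124 to 1233 ± 307 CPM (log2 fold change 2.25, edgeR adjusted p = 0.0191). Apod, which codes for a lipid-binding secreted protein, rose from 652 ± 302 to 5746 ± 1540 CPM (3.14, edgeR adjusted p = 0.00684). Enpp6, a marker of cells starting to differentiate, rose from 192 ± 46.1 to 1899 ± 664 CPM (3.31, edgeR adjusted p = 0.0298). The list medians were 0.73, 0.82, 1.04, 0.44 and 0.98 in that order of lists, beside -0.08 for all genes.

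The other called genes were transcription factors and a protease. Nkx2-2, a homeodomain factor of the lineage, rose from 18.6 ± 8.25 to 96.2 ± 29.5 CPM (2.36, edgeR adjusted p = 0.0338). Zfp488, a zinc finger protein of oligodendrocytes, rose from 122 ± 33.9 to 433 ± 117 CPM (1.83, edgeR adjusted p = 0.0427). Klk6, a secreted serine protease, rose from 18.2 ± 7.13 to 416 ± 150 CPM (4.52, edgeR adjusted p = 0.0214). Sox10 and Myrf, which bind the promoters and enhancers of myelin genes, had log2 fold changes of 1.43 (edgeR adjusted p = 0.129) and 0.94 (edgeR adjusted p = 0.287), each without overlap.

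Between the siRNA-labelled group and stroke, 0 genes of these lists were called by edgeR. The smallest p was that of the transcription factor gene Tcf7l2, which had 377 ± 134 CPM in the stroke libraries and 122 ± 15.7 CPM with the siRNA label (log2 fold change -1.63, unadjusted p = 0.00102, edgeR adjusted p = 0.445). Bcas1 had 421 ± 129 CPM with the siRNA label (log2 fold change -1.55, unadjusted p = 0.00122, edgeR adjusted p = 0.445). At an unadjusted p under 0.05, in either direction, there were 4 of 16 other myelin protein genes, 0 of 7 lipid enzyme genes, 5 of 11 transcription factors, 1 of 9 mature markers and 4 of 10 precursor markers, beside 7.37% of all genes. Of the other myelin protein genes, Gpm6b (0.86) and Anln (0.69) were higher with the siRNA label (edgeR adjusted p = 0.643 and 0.649), and Nfasc and Bcas1 were lower. The genes of the other lists in this count were lower. Against adult control, 0 genes of these lists were called by edgeR in the siRNA-labelled group, with 1, 2, 2, 3 and 3 at an unadjusted p under 0.05 in the same order (8.36% of all genes), and Apod had a log2 fold change of 2.44 (edgeR adjusted p = 0.0606). Of the 3 precursor markers, Pdgfra (-0.85) and Ptprz1 (-0.94) were lower and Enpp6 (2.22) was higher (edgeR adjusted p = 0.594, 0.480 and 0.295).

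In P4 against adult control, 15 of 16 other myelin protein genes fell, as did all 7 lipid enzyme genes, all 11 transcription factors, all 9 mature markers and 8 of 10 precursor markers, beside 10.4% of all genes. The others were Cntn2 (-1.92, edgeR adjusted p = 0.0504), Enpp6 (-1.83, edgeR adjusted p = 0.0527) and Vcan (0.02, edgeR adjusted p = 0.980). Among the transcription factors, Myrf fell by 6.17 and Sox10 by 4.94 (edgeR adjusted p = 1.32e-06 and 5.20e-06). The median of the precursor markers, -2.60, was nearer to 0 than those of the mature markers (-7.74), the other myelin proteins (-5.77) and the 9 structural genes (-7.92). The precursor gene Vcan, a chondroitin sulfate proteoglycan also made by other cells, had 914 ± 312 CPM in the controls and 927 ± 399 CPM in P4.

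Markers of other cell types moved between the same groups. In stroke against adult control 4 of 8 astrocyte markers fell (0.218% of all genes), while 3 of the 8 had fitted values above 0. Among these 3, Gfap had 4.23 ± 3.54 CPM in the controls and 27.3 ± 12.1 CPM in stroke (log2 fold change 2.71, edgeR adjusted p = 0.0919). The summed share of the 8 was 0.401 to 0.607% of counts for the controls, 0.0550 to 0.0842% for stroke, 0.0762 to 0.143% for siRNA-labelled stroke and 0.0320 to 0.0563% in P4. Slc1a2, a marker that fell, had the highest level of the list, with 4126 ± 875 CPM in the controls and 563 ± 153 CPM in stroke. Of the pan-neuronal markers 0 of 10 were called by edgeR in stroke and 5 had an unadjusted p under 0.05 (15.9% of all genes). Among the latter, Tubb3 was higher in stroke, and Snap25, Syt1, Rbfox3 and Nefm were lower. Microglia markers, with 0 of 9 called by edgeR among the adult groups (5 with an unadjusted p under 0.05 in siRNA-labelled stroke against stroke, beside 7.37% of all genes), took 0.0695 to 0.0947%, 0.0292 to 0.0951%, 0.123 to 0.238% and 0.00210 to 0.00354% in the same order. Against adult control, 8 of 9 microglia markers and 5 of 8 astrocyte markers fell in P4 (10.4% of all genes), and 4 of 10 pan-neuronal markers rose (6.32%). The part of these cell types in the results on myelin genes was not tested. Schwann cell markers, for the myelin of peripheral nerve, took at most 0.00538% of counts in any library.

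The genes whose level over the 9 adult libraries was most like the mean log2 CPM of the 9 myelin genes were, in order, Lig1, Psmd1, Slco3a1, Jakmip3, Adipor1, Clic4, Smad7 and Ado. Their Pearson correlations ran from 0.968 (Ado) to 0.990 (Lig1), and 131 of 10844 candidate genes, those whose mean reached 5 CPM, were above 0.9. None of the 8 was called in a comparison among adult groups. In P4 against adult control they went different ways. Clic4 fell by 4.55, Smad7 by 2.96 and Ado by 1.39 on the log2 scale (edgeR adjusted p = 5.35e-07, 8.21e-05 and 0.00245). Psmd1 rose from 135 ± 31.4 to 337 ± 27.8 CPM (log2 fold change 1.32, edgeR adjusted p = 0.00521), and the other 4 were not called. The mean log2 CPM of the 9 myelin genes itself was 10.09, 10.65 and 9.76 for the controls, 11.34, 10.96 and 10.70 for stroke, 10.77, 10.73 and 11.12 for siRNA-labelled stroke and 2.08, 2.37 and 2.84 in P4. It was lower in every control library than in any stroke library, and the closest values were 10.65 and 10.70.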

How the data were processed

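The 9 genes and the gene lists were chosen with earlier results of these data known. Per the labels' protocols, RNA came from an RNA-Microprep kit, was amplified (Ovation RNA-seq System v2) and was read as pairs of 69 bp. Per the submitters' processing notes, CASAVA 1.8.2, edgeR and mm10 were used. No aligner, counting tool, annotation or strand setting is stated in the sources used here. The table deposited by the authors holds raw read counts per gene, which were tested here. It also holds the authors' log2 fold changes and the authors' p-values and false discovery rates. The 30 further columns of values per library (normalized counts and log ratios) were not used. The column for P4 4 carries the name P3 and was assigned through its number.

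Counts were filtered with filterByExpr by group in edgeR 4.0.16 (R 4.3.3), scaled with TMM and fitted by quasi-likelihood over all 12 libraries, with a mean for each group. Calls are at an adjusted p under 0.05 (Benjamini-Hochberg, 17909 genes). The SE is approximate, the fold change on the log2 scale over the square root of F, and intervals are at 95%. Gene levels are CPM, and log2 CPM for correlations has a prior count of 2. Alternatives were other scalings, no filter, DESeq2 1.42.0, only the groups compared, a replicate block, leaving out each library, and, added after seeing the data, 3 ways of treating GC. Transcript GC and length came from GENCODE M21 transcripts matched by RefSeq accession, for 98.5% of the genes tested. Without a stated strand, reads in exons shared with Dnajc7 (154 bases, Cnp), Galnt5 (237, Ermn) and Tspan2os (88, Tspan2) cannot be assigned with certainty. No 2 libraries of a group agreed within sampling noise (chi-square per gene of 52.4 or more). Genes outside the 9 were named by their call or smallest p in a list, by likeness to the 9, or, as Gdf10, by the labels, and the text gives part of them. Sox10, Myrf, Vcan, Gfap, Gpm6b, Hapln2, Pdgfra, Ptprz1, Anln, Nfasc and the pan-neuronal genes were named after their values were seen. The method was tested on simulated counts.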

Additional observations from a re-analysis of the deposited data

How the results depend on the processing

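Of 801 alternative values of single genes, 762 kept their direction and side of the threshold, 7 newly passed it and 32 changed sign, none of the latter past the threshold. All 9 genes stayed called in each comparison with P4, and 0 in siRNA-labelled stroke against stroke, in every alternative run. In siRNA-labelled stroke against adult control 1 of 9 was called, Cldn11, in 5 fits, given here with the share of all genes called. These were DESeq2 (2.09%), no filter (0.172%), GC-adjusted offsets (0.346%), the GC slope as covariate (0.793%) and libraries of negative GC slope (0.549%). The fits of only the groups compared, with and without a replicate block, called 0% of all genes. Leaving out 1 library at a time gave 1 to 3 calls in stroke against adult control (3 without adult control 2). The cause was not tested. Over all genes, stroke against adult control gave 87 calls higher and 39 lower, 176 and 77 with GC-adjusted offsets and 282 and 85 with the covariate, and 240 and 309 without adult control 2. The siRNA-labelled group against adult control gave 15 and 6, then 45 and 16, and 103 and 39. DESeq2 size factors moved the median of all genes in stroke against adult control from -0.08 to -0.19.

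Signs changed for small differences. In stroke against adult control, Ermn was 0.53 with GC-adjusted offsets, 0.31 with the GC slope as covariate and 0.23 in libraries of positive slope. Mag was -0.21 and Mal -0.42 in libraries of positive slope, Mobp 0.093 with the covariate, and Tspan2 -0.031 with DESeq2 size factors and -0.030 with DESeq2. In siRNA-labelled stroke against stroke, Ermn was -0.24 with offsets, -0.024 with the covariate and -0.069 in libraries of positive slope. In those libraries Mag was 0.25, Mog 0.45 and Tspan2 -0.13, and Mog was 0.25 with the covariate. Leaving out a library moved stroke against adult control over -0.85 to 0.31 for Ermn, -0.20 to 0.52 for Mal, -0.14 to 0.11 for Mobp and -0.11 to 0.49 for Tspan2. It moved siRNA-labelled stroke against adult control over -0.093 to 0.69 for Ermn, -0.86 to 1.29 for Mag and -0.0042 to 0.65 for Mbp, and Mog against stroke over -0.55 to 0.13.

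Samples with the same number deviated together weakly or not at all (r from -0.34 to 0.06 for adult control with siRNA-labelled, 0.01 to 0.16 for stroke with P4). Samples with unlike numbers ran from -0.32 to 0.48 and from -0.18 to 0.15. Differences between libraries such as base composition enter these values, which therefore cannot settle whether the numbers mark pairs. In the main fit the numbers were not taken as pairs. With a replicate block, 0 of 9 genes were called in siRNA-labelled stroke against adult control, where 0% of all 15803 genes tested were. In stroke against P4 the block fit called 9 of 9, where 29.3% of all genes were called. At this depth the counts on these genes do not limit the tests in adult libraries, where the spread between libraries does, while Mobp rests on 24 to 34 reads in each P4 library.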
